A study of Rattus norvegicus with 24 samples.

Results

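Transcripts that mark macrophages and neutrophils were followed in quadriceps femoris muscle from rats of the Sprague-Dawley strain. The 10 genes, Ptprc, Csf1r, Cd68, Adgre1, Cd163, Mrc1, Cd74, Lyz2, S100a8 and S100a9, were listed by name as markers of leukocytes, and each matched 1 of the 21067 gene rows. Poly(A) RNA of 24 rats was sequenced, 6 rats a group and 1 library a rat. Control rats (labelled blank) were fed normally and did not train. Treadmill rats trained on a treadmill for 7 weeks and then ran to exhaustion. Catgut 1 rats had the same training and exhaustive run after absorbable thread had been embedded, 1 week before training began, at the acupoints Bai Hui, Qian Shen, Han Gou, Qiang Feng, Yang Wa and Xie Qi. Catgut 2 rats were treated like catgut 1 rats, with Fei Shu as an additional point. The rats were 6 weeks old when the study began. No embedded group went without training, so embedding was compared only among trained and exhausted rats, and training and the exhaustive run cannot be told apart. The study's methods state males and females in equal number, and Y-linked transcripts were present in 3 of the 6 libraries of each group, except 2 of 6 in catgut 2.

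Macrophages reside in the connective tissue between muscle fibres, where they clear debris, present antigen and support repair, and their survival depends on signals through the CSF1 receptor. Neutrophils circulate in blood, enter muscle early after damage, and carry much of their protein as S100A8 and S100A9, a calcium-binding pair that monocytes also make. Ptprc encodes CD45, a phosphatase on the surface of nearly all leukocytes. Among macrophage genes, Adgre1 encodes F4/80, Cd68 a lysosomal glycoprotein, Cd163 the scavenger receptor for haemoglobin bound to haptoglobin, and Mrc1 the mannose receptor. Cd74 is the invariant chain that escorts MHC class II, and Lyz2 is lysozyme, made by macrophages and neutrophils.

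The total count ranged from 45945938 to 78278080 per library. Levels are given as FPKM, which are per length of transcript, and a gene was tested when its mean over the 24 libraries was at least 0.1 FPKM, as held for 14772 genes and all 10 markers. The tissue label fitted the muscle transcripts, since 8 of them, among them Acta1 and Ckm, summed to between 69710 and 98941 FPKM in every library, although the extraction text of the labels also speaks of adipose tissue. Control 4 and treadmill 2 stood furthest from the other libraries, with median correlations across genes of 0.961 and 0.968 against 0.970 to 0.979 elsewhere. Fold changes and calls that rest on them are mostly also given without treadmill 2 or without both. The medians of the other gene lists and the SDs within groups are not given without them. Liver transcripts such as Alb summed to 241 FPKM in control 2, 361 in treadmill 3 and 27.7 in treadmill 2, and to at most 6.38 in any other library. In bulk muscle, fewer cells of a type and less RNA per cell cannot be told apart.

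The most abundant marker was Cd74, at a mean of 53.0 FPKM over the 24 libraries and the 92.6th percentile of tested genes, followed by Lyz2 at 27.1 FPKM and the 87.3rd percentile. Csf1r averaged 2.99 FPKM, Cd68 1.79, S100a9 1.53, S100a8 0.949, Mrc1 0.871, Cd163 0.781, Adgre1 0.531 and Ptprc 0.201. Cd74 and Lyz2 thus stood well above the receptors that macrophages carry, and the pan-leukocyte gene Ptprc stood lowest. Lyc2, a lysozyme gene similar to Lyz2 that could share reads with it, averaged 0.104 FPKM.

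Ptprc lies on chromosome 13 from 55061562 to 55173692 on the minus strand, in the coordinates of the deposited table, whose build is not given in the sources used here. Its level ran from 0.0962 FPKM through a median of 0.156 to 0.480 in control rats and from 0.0513 through 0.128 to 0.927 in treadmill rats. In catgut 1 rats it ran from 0.0754 through 0.145 to 0.333, and in catgut 2 rats from 0.0399 through 0.180 to 0.277. The 4 groups overlapped, and 1 treadmill library, treadmill 2, lay above every other library.

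Csf1r, the receptor for the macrophage growth factors CSF1 and IL-34, lies on chromosome 18 from 56414488 to 56457869. It ran from 1.17 FPKM through a median of 2.25 to 4.21 in control rats and from 1.56 through 2.57 to 8.63 in treadmill rats. The values were 1.69, 2.68 and 3.27 in catgut 1 rats and 0.982, 2.67 and 5.99 in catgut 2 rats. The medians lay close together, and the high ends came from treadmill 2, treadmill 1 at 6.53 and catgut 2 rat 2.

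Cd68 (chromosome 10, 56268720 to 56270640) ran from 0.778 FPKM through 1.51 to 2.46 in control rats and from 0.706 through 2.12 to 6.13 in treadmill rats. It ran from 0.874 through 1.42 to 2.17 in catgut 1 rats and from 0.985 through 1.18 to 3.11 in catgut 2 rats. The treadmill group held both the lowest and the highest Cd68 level of the series. Lyz2 (chromosome 7, 60335969 to 60341264) ran from 16.7 FPKM through 18.8 to 57.2 in control rats and from 13.9 through 26.3 to 84.1 in treadmill rats. It ran from 13.95 through 21.8 to 24.4 in catgut 1 rats and from 13.5 through 19.8 to 41.3 in catgut 2 rats. All 6 catgut 1 libraries lay within 1.75-fold of each other for Lyz2, against 6.03-fold in the treadmill group.

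Cd74 (chromosome 18, 56071478 to 56080849) ran from 26.7 FPKM through 43.3 to 84.1 in control rats and from 24.6 through 40.4 to 165 in treadmill rats. The values were 37.7, 49.3 and 61.1 in catgut 1 rats and 25.0, 42.8 and 74.6 in catgut 2 rats. The treadmill median lay below the control and catgut 1 medians, while the treadmill mean, 65.5 FPKM ± 56.1 (SD, n = 6), lay above the means of 50.6 ± 21.3, 49.4 ± 7.97 and 46.4 ± 20.4 in control, catgut 1 and catgut 2 rats.

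Adgre1, Cd163 and Mrc1 had the same shape. Adgre1 (chromosome 9, 9431860 to 9585865) ran from 0.0681 to 1.81 FPKM in the treadmill group, a 26.6-fold range, and from 0.255 to 0.460 in the catgut 1 group. Cd163 (chromosome 4, 156752082 to 156785467) ran from 0.200 to 2.71 in the treadmill group and from 0.509 to 1.28 in the catgut 1 group. Mrc1 (chromosome 17, 81352700 to 81433743) ran from 0.247 to 3.16 and from 0.577 to 1.19 in the same groups. In catgut 2 rats Adgre1 ran from 0.188 to 1.16 FPKM, Cd163 from 0.106 to 1.58 and Mrc1 from 0.226 to 1.60. For these 3 genes the treadmill medians of 0.311, 0.418 and 0.468 FPKM lay below the control medians of 0.461, 0.682 and 0.839.

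S100a8 and S100a9 lie 23.2 kb apart on chromosome 2, from 190073815 to 190074354 and from 190097554 to 190100276, on opposite strands. S100a9 ran from 0.548 FPKM through 1.06 to 1.43 in control rats and from 0.754 through 1.86 to 4.28 in treadmill rats. It ran from 0 through 1.31 to 2.48 in catgut 1 rats and from 0.949 through 1.58 to 2.39 in catgut 2 rats. Of the treadmill libraries, 4 lay above every control library, with treadmill 4 the highest, and the other two lay within the control range. S100a8 ran from 0.256 FPKM through 0.642 to 1.17 in control rats and from 0.155 through 1.53 to 2.13 in treadmill rats. It ran from 0 through 0.737 to 1.499 in catgut 1 rats and from 0.750 through 0.843 to 1.87 in catgut 2 rats. Here 5 of the treadmill rats exceeded all control rats, and treadmill 1 was below all of them. These levels rested on few counts, 0 to 51 per library for S100a8 and 0 to 143 for S100a9. The commonest count above 0 in the table was 4, so a floor of 12 counts (3 fragments if 1 fragment stood for 4 counts) was set, and S100a8 passed it in 18 libraries, S100a9 and Ptprc in 23, and the other markers in all 24. Catgut 1 rat 5 had a count of 0 for S100a8 and S100a9 and catgut 1 rat 6 a count of 0 for S100a8, and each such 0 allows up to 12 counts, by counting error only.

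**Figure D1:**
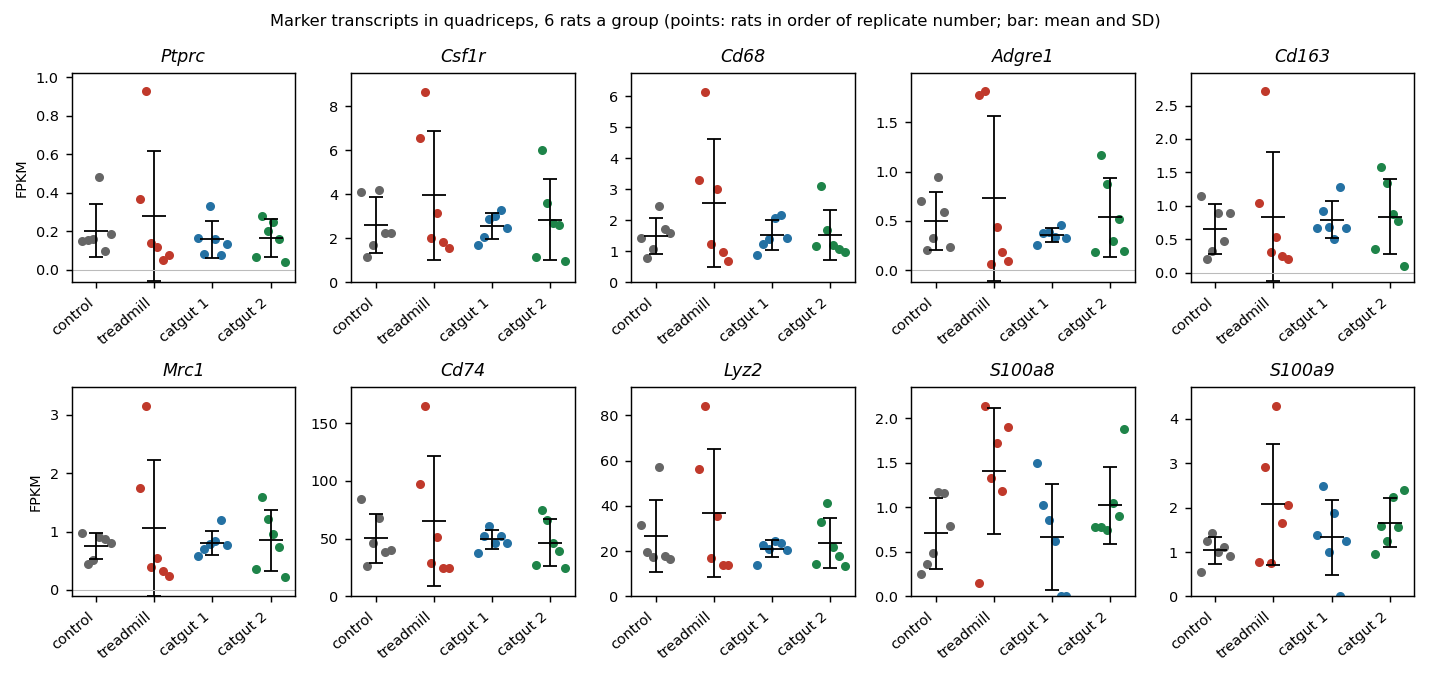
Level of each marker in FPKM (vertical axis, linear, 1 panel a gene) by group. Points are the 6 rats of a group in order of replicate number, and the bar gives the mean and SD. For Cd74 the treadmill points span 24.6 to 165 and the catgut 1 points 37.7 to 61.1, and for S100a9 the highest point is treadmill 4 at 4.28.

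The libraries with high macrophage markers were the same across genes. Treadmill 2 held the highest level of all 8 leukocyte and macrophage markers (the 10 genes without S100a8 and S100a9). Treadmill 1 and catgut 2 rat 2 were each among the top 5 libraries for 7 of the 8, control 4 for 6 and catgut 2 rat 3 for 4. Treadmill 6 and catgut 2 rat 6 were among the lowest 5 for all 8, treadmill 5 for 7 and catgut 2 rat 1 for 6. The treadmill and catgut 2 groups therefore held libraries from both ends, and 0 of the 6 catgut 1 libraries was among the top 5 for more than 2 of the 8 genes. S100a8 and S100a9 followed another order. Treadmill 1, with a median rank of 2 over the 8 macrophage genes, had a median rank of 21.5 of 24 for S100a8 and S100a9, and catgut 2 rat 6, lowest with rank 24, had 3.5. With S100a8 included, treadmill 2 held the highest value of 9 of the 10 markers, against 15.3% of all tested genes.

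**Figure D2:**
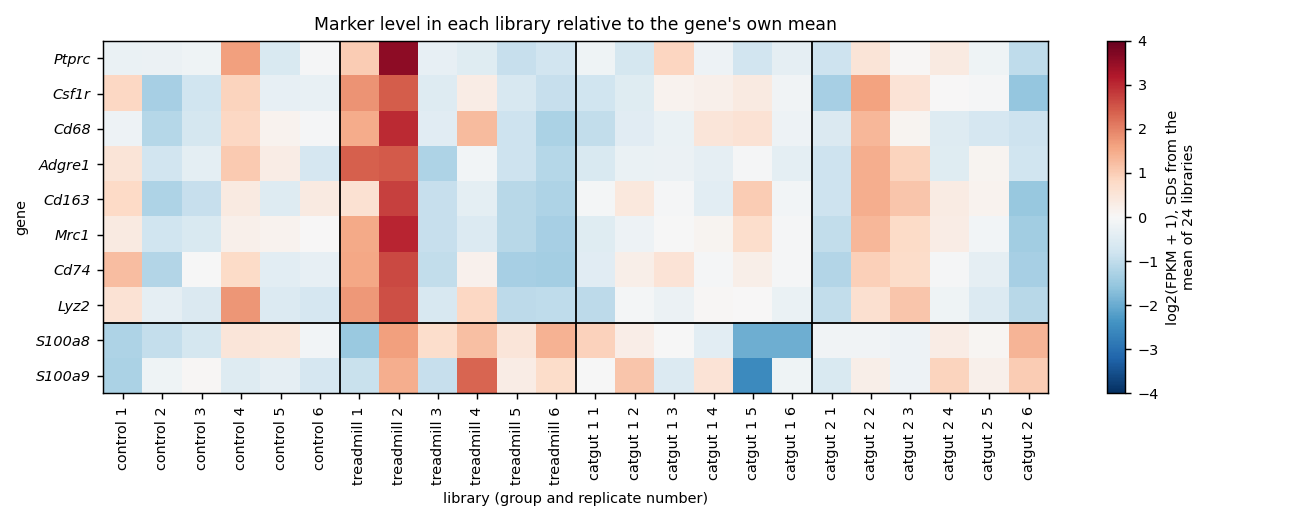
Level of each marker (rows) in each of the 24 libraries (columns, by group and replicate number), as log2(FPKM + 1) in SDs from the gene's mean over the libraries, red above and blue below. Treadmill 2 is red in all 10 rows and treadmill 6 and catgut 2 rat 6 are blue in the 8 upper rows, while S100a8 and S100a9 in the lower rows run in another order.

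Markers of some other cells were high or low in several of the same libraries, and their part in the results was not tested. The 6 fibroblast markers summed to 522 FPKM in treadmill 2, 579 in control 4 and 589 in catgut 2 rat 2, against 121 in treadmill 6 and 115 in catgut 2 rat 6. They summed to 250 in treadmill 1 and to 380 in control 5, whose median macrophage rank was 15. No tested endothelial, adipocyte, erythroid or liver gene was highest in treadmill 2. The 6 tested mast cell genes, Cpa3 and Cma1 among them, were all highest in treadmill 2, where the mast cell list summed to 23.4 FPKM against 1.22 in catgut 2 rat 6. Adipocyte markers spanned 318 to 703 FPKM, with treadmill 2 at 503. Of the liver-rich libraries, control 2 and treadmill 3 had low macrophage markers, with median ranks of 20 and 18.5 of 24. Erythroid transcripts were highest at 1873 FPKM in catgut 2 rat 1 and 1744 in treadmill 4, and 646 in treadmill 2. The median FPKM over all tested genes was also high in control 4 and treadmill 2, at 3.86 and 3.81, against 2.54 to 3.48 in the other libraries.

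The comparison of treadmill with control rats asks what training with an exhaustive run did to the muscle. All 10 markers had a higher mean in treadmill rats, with log2 fold changes from 0.28 for Cd163 to 1.03 for S100a8 and a median of 0.48, beside a median of -0.002 over all tested genes. Without treadmill 2 the markers' median was 0.11, and with limma it was 0.18 and 0.17 at a pseudocount of 1 and 0.1. By group medians of FPKM, 5 of the 10 markers were higher in treadmill and 5 lower. S100a9, a subunit of the neutrophil protein calprotectin, averaged 2.07 FPKM ± 1.36 (SD, n = 6) in treadmill and 1.04 ± 0.305 in control rats. Its log2 fold change was 1.02 with an SE of 0.42, and it alone met the study's criterion for a differentially expressed gene, a ratio of means over 1.5 or under its inverse with an unadjusted p under 0.05. By that criterion 2.85% of all tested genes were called and 1.77% were called higher, and 1 called marker of 10 is too few to set against these shares. In the quasi-likelihood test of edgeR the adjusted p of S100a9 over all tested genes was 0.520, from an unadjusted value of 0.0324. The call did not hold without treadmill 2, 4 or 6, nor without control 1, 4 or 6, nor without control 4 and treadmill 2 together. In those fits the log2 fold change was 0.65 without treadmill 4 and stayed between 0.895 and 0.998 in the others. In the exact permutation test on log2(FPKM + 1), two-sided, p was 0.108 for S100a9 and 0.102 for S100a8, with a smallest possible p of 0.00216 for 6 against 6.

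For the 8 leukocyte and macrophage genes the differences from control did not pass the test. Log2 fold changes were 0.73 for Cd68 (SE 0.44), 0.57 for Csf1r (SE 0.42), 0.46 for Lyz2 (SE 0.44) and 0.33 for Cd74 (SE 0.44). They were 0.50 for Adgre1, 0.43 for Mrc1, 0.41 for Ptprc and 0.28 for Cd163, with SEs of 0.53 to 0.73. Adjusted p in edgeR was 0.631 to 0.917 over these 8 genes, 0 of the 10 markers passed an adjusted p of 0.05, as 0.0542% of all tested genes did, and S100a9 was the single marker with an unadjusted p under 0.05, which 9.12% of all tested genes had. Without treadmill 2 the fold changes of Ptprc, Cd163, Mrc1 and Cd74 lay below 0, at -0.35, -0.44, -0.17 and -0.09, so that 1 library set their direction. No marker separated the groups, as 0.447% of all tested genes did.

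The catgut groups were each compared with the same treadmill libraries, which asks whether embedding changed the trained and exhausted muscle. In catgut 1 rats all 10 fold changes were below 0, with a median of -0.66 beside -0.011 over all tested genes, or -0.30 without treadmill 2, and 0 of the 10 met the criterion, against 3.12% of all tested genes. In edgeR 0 markers had an unadjusted p under 0.05, against 6.93% of all tested genes, or an adjusted p under 0.05, against 0.0474%. The mean of Lyz2 was 21.1 FPKM ± 3.77 (SD, n = 6) in catgut 1 and 36.8 ± 28.4 in treadmill rats, a log2 fold change of -0.76 with an SE of 0.37 and, in edgeR, an adjusted p of 0.756 from an unadjusted value of 0.0635. Lyz2 met the criterion in 1 fit over all 4 groups, in DESeq2, and without treadmill 3, 5 or 6, whereas without treadmill 2 its fold change was -0.42 (adjusted p in edgeR of 0.819). Fold changes were -1.07 for S100a8 (SE 0.91), -0.95 for Adgre1 (SE 0.67), -0.73 for Ptprc (SE 0.61), -0.68 for Cd68 (SE 0.44), -0.64 for S100a9 (SE 0.73) and -0.58 for Csf1r (SE 0.36). They were -0.36 for Cd74, -0.31 for Mrc1 and -0.01 for Cd163. Without treadmill 2, Cd163, Mrc1, Cd74 and Ptprc lay above 0, at 0.70, 0.29, 0.06 and 0.03, and Cd68 was at -0.31. By group medians of FPKM, 6 of the 10 markers were higher in catgut 1 than in treadmill rats.

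In catgut 2 rats 9 of the 10 fold changes against treadmill were below 0, with Cd163 at 0.04, a median of -0.47 beside 0.004 over all tested genes, or -0.13 without treadmill 2, and 0 markers met the criterion, against 3.76% of all tested genes. Cd68, the lysosomal marker, had the lowest value, -0.71 with an SE of 0.45, and means of 1.54 FPKM ± 0.810 (SD, n = 6) against 2.56 ± 2.06. Ptprc was at -0.70 (SE 0.63), Lyz2 at -0.63 (SE 0.41), Csf1r at -0.48 (SE 0.45) and S100a8 at -0.48 (SE 0.48). The remaining values were -0.47 for Cd74, -0.41 for Adgre1, -0.35 for S100a9 and -0.29 for Mrc1. Adjusted p in edgeR was 0.634 to 0.994, where 0.237% of all tested genes passed 0.05, and 0 markers had an unadjusted p under 0.05, against 10.7% of all tested genes. Cd68 met the criterion without catgut 2 rat 2, at -0.999, and was at -0.35 without treadmill 2. Without treadmill 2, Ptprc and Mrc1 lay above 0, at 0.04 and 0.29, and by group medians 6 of the 10 markers were higher in catgut 2 than in treadmill rats.

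The addition of Fei Shu was examined by comparing catgut 2 with catgut 1 rats. Fold changes ran from -0.12 for Cd74 (SE 0.20) to 0.59 for S100a8 (SE 0.84), with a median of 0.07 (-0.19 to 0.21 when 1 library was left out) beside 0.007 over all tested genes, and 0 markers met the criterion, against 1.25% of all tested genes. Adgre1 had means of 0.538 FPKM ± 0.401 (SD, n = 6) and 0.358 ± 0.0687, with 3 catgut 2 libraries above and 2 below every catgut 1 library, and a log2 fold change of 0.53 with an SE of 0.39. The other fold changes lay between -0.03 and 0.29. Every adjusted p of a marker in edgeR was 1.0, where 0.00677% of all tested genes passed 0.05, and 0 markers had an unadjusted p under 0.05, against 3.26%.

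In a test of all 4 groups together, 0 of the 10 markers had an adjusted p under 0.05, as 0.379% of all tested genes had, and their adjusted p in edgeR was 0.591 to 0.986. Exact permutation tests of log2(FPKM + 1) over the 6 pairs of groups and 10 genes gave 1 unadjusted p under 0.05 among 60, for S100a9 in catgut 2 against control rats (p = 0.0411, two-sided, n = 6 a group). By mean FPKM the treadmill group came first for all 10 markers, for Cd163 by 0.8397 against 0.8394 in catgut 2, and without treadmill 2 it came first for 5, Csf1r, Cd68, Lyz2, S100a8 and S100a9. Apart from the tests given here, the order of the group means was not tested.

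**Figure D3:**
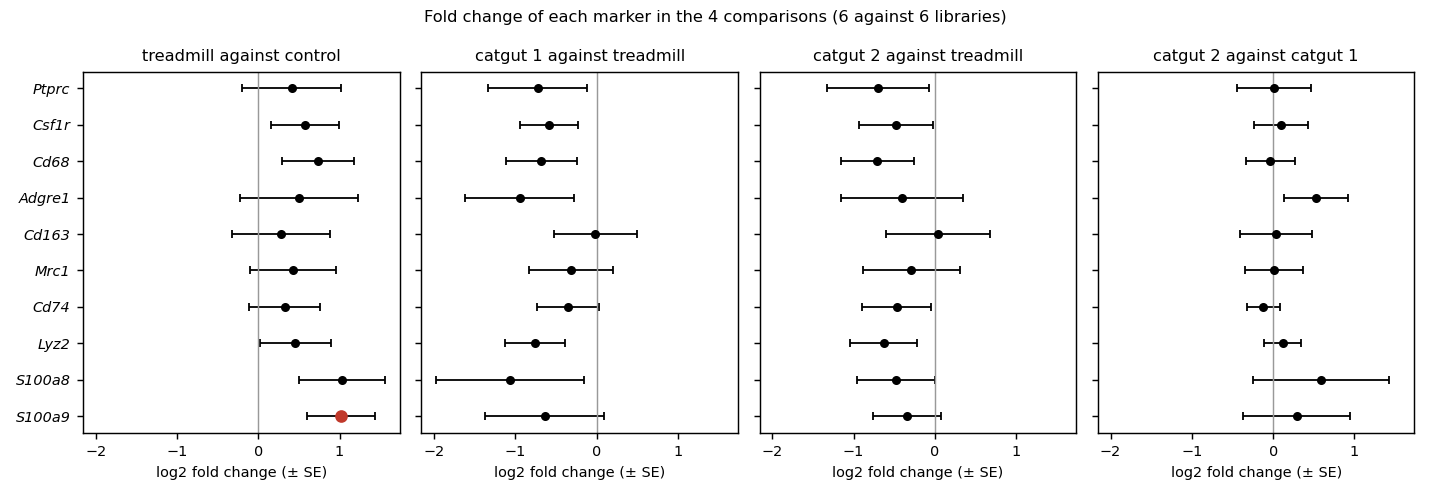
Log2 fold change with its SE (horizontal axis) of each marker (vertical axis) in the 4 comparisons of 6 against 6 libraries, with the gene that met the criterion in red. Points lie right of 0 for all 10 genes in treadmill against control and left of 0 for all 10 in catgut 1 against treadmill, where the Cd163 point is at -0.01, and 9 of the 10 bars cross 0 in catgut 2 against catgut 1.

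The markers varied widely between rats of a group. The SD of log2 CPM (depth-scaled counts) within groups was 0.65 to 1.23 for the 10 markers, against a median of 0.33 over all tested genes. Cd74 had an SD of 1.02 in the treadmill group and 0.15 in catgut 1, Adgre1 1.86 and 0.22, Mrc1 1.33 and 0.33, and Csf1r 0.90 and 0.35. For S100a8 and S100a9 the order was the reverse, 1.20 and 0.96 in treadmill and 1.97 and 2.02 in catgut 1, where the libraries with counts of 0 fell. In catgut 2 the SD was 0.53 for Cd74, 0.98 for Adgre1, 0.95 for Mrc1 and 0.87 for Csf1r. The treadmill SD was above the catgut 1 SD for 8 of the 10 markers, as for 50.5% of all tested genes, and above the control SD for 10 of 10, as for 55.4%. It was above the catgut 2 SD for 9 of 10, as for 54.5%, the exception being Cd163 at 1.28 in treadmill and 1.32 in catgut 2. These counts carry no test, because the markers vary together over the same libraries.

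Across the 24 libraries the 8 leukocyte and macrophage markers varied together. Over their 28 pairs, Pearson's r of log2(FPKM + 1) was 0.704 to 0.932 with a median of 0.858, Spearman's rho was 0.479 to 0.903, and the highest adjusted permutation p over the 45 pairs of markers was 7.29e-04 for r and 0.0298 for rho among these 28. The closest pair was Cd163 and Mrc1, the scavenger and mannose receptors, with r = 0.932 and rho = 0.896. Within groups, as deviations from the group means, the median r was 0.870. The median was 0.954 within the treadmill group, 0.910 in catgut 2, 0.733 in control and 0.617 in catgut 1, in which pairs ranged from -0.537 to 0.921. Without the 2 libraries farthest from the median of the first gene, r was 0.453 to 0.878 and the highest adjusted permutation p was 0.0496. The points of these correlations share libraries, and with them the whole make-up of each piece of tissue.

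S100a8 and S100a9 varied with each other, with r = 0.673 (permutation p = 2.7e-04, adjusted p = 4.5e-04) and rho = 0.567, and r = 0.627 without catgut 1 rats 5 and 6. Their 16 pairs with the macrophage markers had r of -0.168 to 0.170 and adjusted permutation p of 0.629 to 0.950. Without the 2 farthest libraries, S100a8 had r = -0.468 with Cd163 and -0.476 with Mrc1, with adjusted permutation p of 0.0429 and 0.0388. Within single groups, r of S100a8 with S100a9 was 0.212 in control, 0.689 in treadmill, 0.605 in catgut 1 and 0.779 in catgut 2 rats. Over the 24 libraries the markers thus fell into a group of 8 and a pair, and the pair did not track the group. S100a8 and S100a9 rested on 0 to 51 and 0 to 143 counts per library, and how far counting error lowers their r was not tested.

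**Figure D4:**
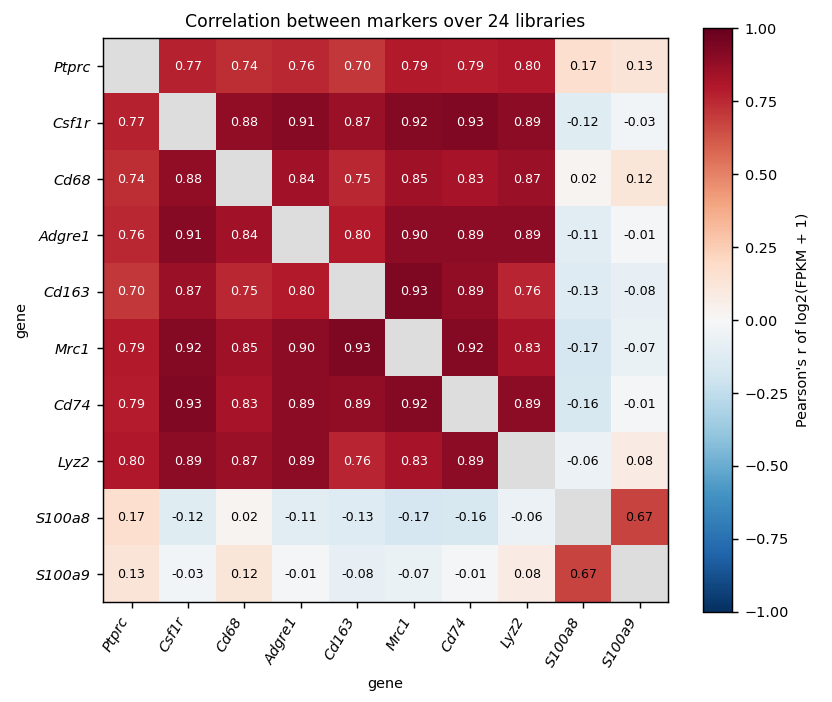
Pearson's r of log2(FPKM + 1) between each pair of markers (both axes) over 24 libraries, with r printed in each cell and the diagonal left grey. The upper left block of 8 genes holds r of 0.70 to 0.93, S100a8 with S100a9 has 0.67, and the remaining cells lie between -0.17 and 0.17.

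**Figure D5:**
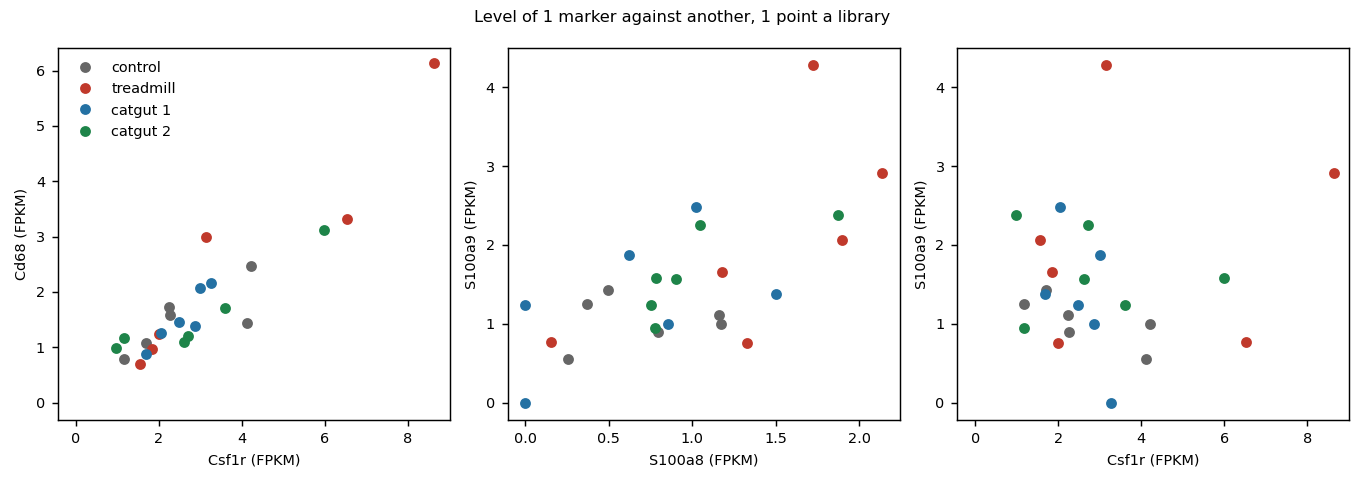
Levels in FPKM (linear axes) of Csf1r against Cd68, S100a8 against S100a9, and Csf1r against S100a9, with 1 point a library coloured by group. Csf1r and Cd68 lie along a line that ends in treadmill 2 at 8.63 and 6.13 FPKM, whereas treadmill 1, second for Csf1r at 6.53, has S100a9 at 0.768.

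The start regions of the markers were examined because 8 of them varied together. RefSeq promoter entries of the rat assembly GRCr8, an assembly other than any named for the deposited table, matched 9 of the 10 markers. In the 250 bases before the start, the letters GGAAGT, the core of sites bound by the myeloid factor PU.1 and other ETS factors, were found on either strand in Ptprc, Cd68, Mrc1, Lyz2 and S100a9, as in 19.2% of 33469 promoter windows of that length. TTGCNNAA, a form of the site of C/EBP factors, occurred in Adgre1 and Lyz2 and in 9.22% of windows, and TATAAA in S100a9 and in 12.9%. No match says only that these letters are not in this window, and a match is no evidence of binding. Of the genes with the PU.1 letters, 4 are shown 5′ to 3′ along the gene's strand, 3 from the group of 8 and S100a9 from the pair, with the matches in capitals (ACTTCC is the other strand of GGAAGT).
Ptprc, chr13:52259747-52259996, minus strand: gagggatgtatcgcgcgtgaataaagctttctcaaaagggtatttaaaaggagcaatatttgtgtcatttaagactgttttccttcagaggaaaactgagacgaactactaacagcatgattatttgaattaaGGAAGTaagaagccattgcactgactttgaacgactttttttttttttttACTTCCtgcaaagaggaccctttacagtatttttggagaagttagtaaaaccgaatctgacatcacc
Cd68, chr10:54882442-54882691, minus strand: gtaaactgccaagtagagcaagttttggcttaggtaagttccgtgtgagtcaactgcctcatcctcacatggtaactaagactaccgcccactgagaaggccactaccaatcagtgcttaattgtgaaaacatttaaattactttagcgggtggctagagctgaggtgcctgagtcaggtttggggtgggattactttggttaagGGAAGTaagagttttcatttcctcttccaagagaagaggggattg
Lyz2, chr7:54798012-54798261, minus strand: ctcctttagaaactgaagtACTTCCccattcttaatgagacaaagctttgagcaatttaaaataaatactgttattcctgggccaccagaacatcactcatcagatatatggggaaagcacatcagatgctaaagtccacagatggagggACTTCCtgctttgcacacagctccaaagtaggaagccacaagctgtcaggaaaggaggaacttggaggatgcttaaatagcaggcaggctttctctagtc
S100a9, chr2:178490623-178490872, minus strand: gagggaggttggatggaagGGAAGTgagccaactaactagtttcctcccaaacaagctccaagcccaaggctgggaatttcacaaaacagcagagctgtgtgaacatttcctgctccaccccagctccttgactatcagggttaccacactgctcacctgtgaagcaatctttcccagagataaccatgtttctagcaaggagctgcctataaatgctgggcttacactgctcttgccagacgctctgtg
The Cd68 match starts 45 bases before the start of the gene and the S100a9 match 231 bases before it. Ptprc and Lyz2 have a match on each of 2 positions, at 117 and 67 bases and at 231 and 100 bases.

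The genes most like each marker over the 24 libraries, of 12646 candidates that were not markers, included genes of immune cells. Cd74 was closest to the MHC class II genes RT1-Da (r = 0.983), RT1-Db1 (0.945) and RT1-Ba (0.936). Csf1r was closest to Cd4, which rat macrophages express, at 0.953, to the folate receptor gene Folr2 at 0.938 and to fibrillin gene Fbn1 at 0.932. Mrc1 was closest to Alox5ap and to F13a1, coagulation factor XIII A, both at 0.951. Lyz2 was closest to Cybb, a subunit of the phagocyte oxidase (0.938), Tyrobp (0.924) and the Fc receptor gene Fcgr1a (0.921), and Cd68 to Fcgr1a (0.916). Adgre1 was closest to Nckap1l (0.936) and Cd163 to Pdgfra (0.913), a gene of fibroblasts. The genes nearest to S100a8 and S100a9 were further off, Rsph3 at 0.625 and the RNA family entry RF00056 at 0.693. Candidates needed a mean of at least 0.1 FPKM, which only 3 of the 18 listed neutrophil genes with a row reached. That no listed neutrophil gene was among the nearest was therefore largely set by this filter.

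The wider neutrophil list was hardly detected. Of 22 listed genes 18 had a row and 3 were tested, Itgb2, Il1b and Lcn2, and these are made by other cells too. Of the 18, 12 were above 12 counts in 3 libraries or fewer, and 7 in none, among them the granule genes Elane, Ltf, Camp and Ngp. Csf3r, the receptor for the neutrophil growth factor, averaged 0.0424 FPKM and passed the floor in 10 libraries, and Mpo, myeloperoxidase, in 2. In treadmill against control, Il1b, which encodes the cytokine interleukin-1β, averaged 1.29 FPKM ± 1.62 (SD, n = 6) and 0.164 ± 0.130, with a log2 fold change of 2.90, an SE of 0.94 and, in edgeR, an adjusted p of 0.444 from an unadjusted value of 0.00871. It met the criterion in each fit that left out 1 library, with fold changes of 2.11 to 3.19, and 4 treadmill libraries lay above every control library.

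Other macrophage genes gave few calls. Of 24 listed, 20 were tested, 18 of which were highest in treadmill 2. In treadmill against control the list's median fold change was 0.35 on the log2 scale, beside -0.002 over all tested genes. The medians over all tested genes were -0.011 in catgut 1 and 0.004 in catgut 2 against treadmill. Those 2 comparisons share the treadmill libraries, and the list's medians are not given without treadmill 2. In catgut 1 and in catgut 2 against treadmill, 19 of the 20 fold changes were below 0, with medians of -0.52 and -0.49. The criterion was met by 3.12% and 3.76% of all tested genes there, and by 1 gene of the list in each. These were the Fc receptor gene Fcgr1a at -1.23 (SE 0.50) and Spi1, which encodes PU.1, at -0.74 (SE 0.32), and neither call held without treadmill 2, where the fold changes were -0.76 and -0.53.

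Markers of resident-type macrophages, such as Lyve1, Folr2 and F13a1, gave 0 calls among 10 tested in any comparison. Of all tested genes, 2.85%, 3.12%, 3.76% and 1.25% were called in the 4 comparisons in the order above. The list's median log2 fold changes were 0.26, -0.19, -0.05 and 0.09 in that order. It holds the markers Cd163 and Mrc1. This list and the next, of 10 and 9 tested genes, are short and were not tested against each other. Of the 9 tested genes of recruited or phagocytic macrophages, Spp1 (osteopontin) met the criterion in treadmill against control with a log2 fold change of 2.09 (SE 0.95) and an adjusted p in edgeR of 0.544. In catgut 1 against treadmill, Ccr1 and Arg1 (arginase) were among those that met it, at -1.88 (SE 0.64) and -2.35 (SE 1.02). Their adjusted p in edgeR was 0.485 and 0.666, and their exact permutation p 0.110 and 0.128. In catgut 2 against treadmill, Arg1 and Ccr1 met it, at -2.31 (SE 0.78) and -1.57 (SE 0.65). Adjusted p there was 0.270 and 0.400 in edgeR, and exact permutation p 0.147 and 0.225. Arg1 was above 12 counts in 13 of the 24 libraries. Of 12 fits that left out 1 library, Arg1 lost its call in 7 in catgut 1, and Ccr1 in 5 in catgut 2. Ccr1, a chemokine receptor, kept its call in catgut 1 without control 4 and treadmill 2, at -1.56, as did Arg1 in catgut 2, at -2.12, while Arg1 in catgut 1 and Ccr1 in catgut 2 no longer met the criterion, at -2.14 and -1.26. Spp1 did not meet it in that fit either, at 2.28, and leaving out 1 library gave 1.11 to 2.73.

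The MHC class II list holds Cd74 itself. All 12 genes were tested, all 12 fold changes were above 0 in treadmill against control with a median of 0.40, and RT1-DMb, which helps load peptide, met the criterion at 0.63 (SE 0.21, adjusted p in edgeR of 0.447) with 5 treadmill libraries above every control library. That call was lost without treadmill 1, 2 or 4 or control 2, with fold changes of 0.54 to 0.74 over all fits that left out 1 library, and was kept without control 4 and treadmill 2 together, at 0.64. In catgut 1 and catgut 2 against treadmill, 12 and 10 of the 12 fold changes were below 0, with medians of -0.33 and -0.40. There 0 met the criterion, against 3.12% and 3.76% of all tested genes. The medians over all tested genes were -0.011 and 0.004. Of the 12 genes, 6 were highest in treadmill 2, which both comparisons share.

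Partners of the markers were read from 16 genes, 14 of them tested. The CSF1 receptor's ligands Csf1 and Il34 averaged 2.33 and 2.30 FPKM over the 24 libraries and met the criterion in 0 comparisons, as did Tlr4 and Ager, receptors of S100A8 and S100A9, at 0.355 and 1.76 FPKM. Hp, haptoglobin, whose complex with haemoglobin CD163 takes up, met the criterion in both catgut groups against treadmill, with log2 fold changes of -2.70 (SE 0.82) and -2.59 (SE 0.79). Hp is also a liver product, its highest level, 20.3 FPKM, was in the liver-rich library treadmill 3, and all 8 tested liver genes met the criterion downward in both catgut comparisons. Its adjusted p in edgeR was 0.370 and 0.227, and without treadmill 3 its fold changes were -1.04 and -0.92, which still met the criterion.

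Of the remaining cells, mast cell genes Cpa3 and Cma1 met the criterion in catgut 1 against treadmill at -1.59 (SE 0.55) and -1.01 (SE 0.42), and lost it without treadmill 2, at -0.87 and -0.63. In treadmill against control, 4 of the 6 tested erythroid rows met it upward (2 rows of Hba-a2, Hbb and Alas2), Hba-a2 with a log2 fold change of 1.02 (SE 0.34). Of all tested genes 1.77% were called higher there, and the adjusted p of the 4 rows in edgeR was 0.456 to 0.526. Alas2 lost its call in 5 of 12 fits that left out 1 library, and without control 4 and treadmill 2 together. Hbb lost its call without treadmill 4. Lymphocyte genes gave 1 call among 8 tested genes in the 4 comparisons, Lck, a T cell kinase, at 1.05 (SE 0.39) in catgut 2 against catgut 1, and platelet factor gene Pf4 was called there at 0.59 (SE 0.21). Both had an adjusted p in edgeR of 1.0. The single tested gene of the list for Kupffer cells, the macrophages of liver, was C6, called in catgut 1 against treadmill at -2.26 (SE 0.88), and not without treadmill 2, at -1.44. Fibroblast genes gave 0 calls among 6 in each comparison. Over all tested genes the share called was 2.85%, 3.12%, 3.76% and 1.25% in the 4 comparisons in the order above.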

How the data were processed

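RNA from the quadriceps of 24 rats was analysed from 1 table of 21067 genes, whose groups came from the sample labels. The authors deposited whole-number counts per gene and FPKM values, fragments scaled by transcript length and library depth. HISAT2 2.0 and StringTie 1.3.0 are named in the submitters' processing notes, and the genome build, annotation, counting tool and strand setting are not given in the sources used here. The commonest count above 0 was 4, so 1 fragment may stand for several counts, which would make low counts look more precise than they are. Total counts were 45945938 to 78278080 per library.

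Levels are FPKM. For each comparison the counts of its 12 libraries were scaled by TMM and fitted with the quasi-likelihood test of edgeR 4.0.16 (R 4.3.3) over the 14772 genes with a mean of at least 0.1 FPKM, with Benjamini-Hochberg adjustment over all of them. The study's criterion (ratio of mean FPKM over 1.5 or under its inverse, unadjusted p under 0.05) was applied to that p, because the study names no test. Each library is 1 rat. The fits were tested on simulated counts first. Correlations used log2(FPKM + 1) with 100000 permutations, adjusted over 45 pairs. Alternatives were DESeq2 1.42.0, limma 3.58.1 with a pseudocount of 1 or 0.1, exact permutation, other filters and scalings, counts divided by 4, a replicate block, a Y-linked covariate and leaving out each library. Leaving out control 4 and treadmill 2, and the exact tests of catgut 1 and catgut 2 against control, were added after the data were seen. The members and gene lists were chosen with earlier results of these data known.

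Named genes were the 10 markers, then from each list the genes that met the criterion, at most 3 a direction by smallest p, genes of lists of at most 12 members by level, and for each marker the 3 genes with the highest r. Some genes that this rule names are not reported here. From longer lists, the neutrophil genes named by level were chosen after their values were seen.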

Additional observations from a re-analysis of the deposited data

Results flagged for a closer look

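Within a group of 6 libraries, 8 values of the 10 markers stood apart from the rest of their group, by a gap to the next library that exceeds the 95% limit of Dixon's test. The test was made in 40 sets of 6 libraries, on FPKM. Its rate of about 1 in 20 by chance assumes normal and independent values, and the macrophage markers varied together over the same libraries. The 8 flags therefore cannot be set against that rate. Treadmill 2 stood apart for Ptprc at 0.927 FPKM (next 0.366) and for Cd163 at 2.71 (next 1.04). Control 4 stood apart for Ptprc at 0.480 (next 0.183) and for Lyz2 at 57.2 (next 31.6). Across genes these were the libraries least correlated with the rest. Catgut 1 rat 3 was high for Ptprc at 0.333 (next 0.163), and catgut 2 rat 2 for Cd68 at 3.11 (next 1.71). Catgut 2 rat 6, which was low for the macrophage markers, was high for S100a8 at 1.87 (next 1.05). Catgut 1 rat 1 was low for Lyz2 at 13.95 (next 20.7). What sets these libraries apart was not tested.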

How the results depend on the processing

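Under every alternative run, 0 markers had an adjusted p under 0.05 in any of the 4 comparisons or over all groups. Of 970 alternative values of the markers' log2 fold changes, 879 kept their direction and 91 reversed it, all of them uncalled. The number of markers meeting the criterion in treadmill against control, 1 by the reported fit, was 0 in 1 fit over all 4 groups, with limma at a pseudocount of 1 or 0.1, by exact permutation, with the replicate block and without control 4 and treadmill 2, and 2 with the Y-linked covariate. It was 1 in catgut 1 against treadmill in 1 fit over all 4 groups and in DESeq2. Leaving out 1 library gave 0 to 2 markers in treadmill against control and 0 to 1 in each catgut group against treadmill. The cause was not tested. Genes called over the other marker lists were 16 in catgut 1 against treadmill, and 10 among genes of at least 1 FPKM, 3 and 7 with limma at a pseudocount of 1 and 0.1. They were 12 in catgut 2 against treadmill, and 5 in DESeq2, 1 and 5 with limma at the same pseudocounts, and 2 in catgut 2 against catgut 1, and 6 with no filter and 1 at 1 FPKM, where more and fewer genes were tested. By the reported fit, 8 of the 16 and 8 of the 12 were liver genes. Of all tested genes, 3.12%, 3.76% and 1.25% met the criterion in these comparisons, in the order given.

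Reversed values in treadmill against control were, with limma at a pseudocount of 0.1, Adgre1 -0.087, Cd163 -0.011 and Mrc1 -0.031, and without control 4 and treadmill 2, Cd163 -0.387, Mrc1 -0.165 and Cd74 -0.044. Leaving out 1 library gave -0.018 to 0.738 for Adgre1, -0.442 to 0.533 for Cd163, -0.092 to 0.559 for Cd74, -0.171 to 0.623 for Mrc1 and -0.348 to 0.773 for Ptprc. In catgut 1 against treadmill they were 0.075 for Cd163 with limma at a pseudocount of 1 and in the exact permutation, 0.367 for Cd163 and 0.145 for Mrc1 at 0.1, and 0.241 for Cd163 with the Y-linked covariate. Without treadmill 2 they were 0.031 for Ptprc, 0.7 for Cd163, 0.288 for Mrc1 and 0.060 for Cd74, and the ranges from leaving out 1 library ran up to these values from -1.007, -0.195, -0.496 and -0.515. In catgut 2 against treadmill they were 0.080 for Adgre1 and 0.017 for Mrc1 with limma at 0.1, and 0.037 for Ptprc and 0.291 for Mrc1 without treadmill 2. Leaving out 1 library gave -0.757 to 0.107 for Adgre1, -0.225 to 0.732 for Cd163, -0.547 to 0.291 for Mrc1, -0.910 to 0.037 for Ptprc and -0.523 to 0.032 for S100a9. In catgut 2 against catgut 1, Csf1r, Cd163 and Mrc1 were -0.003, -0.007 and -0.011 with limma at 1 and in the exact permutation and -0.063, -0.174 and -0.128 at 0.1, and the Y-linked covariate gave -0.091 for Ptprc and 0.051 for Cd68. Leaving out 1 library gave -0.213 to 0.266 for Cd163, -0.318 to 0.123 for Cd68, -0.228 to 0.263 for Csf1r, -0.086 to 0.221 for Lyz2, -0.238 to 0.199 for Mrc1 and -0.172 to 0.293 for Ptprc. Correlations that turned negative were Cd68 with S100a8, at -0.11 within groups, and, without the 2 farthest libraries, S100a8 with Ptprc at -0.29 and with Cd68 at -0.15, and S100a9 with Ptprc at -0.15, with Cd68 at -0.02 and with Lyz2 at -0.07.

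Replicate numbers are shared across groups, but nothing in the labels ties them to a cage, day or batch, and same-numbered libraries deviated together with correlations of -0.447 to 0.273, over 0.1 for 5 of 24 pairs, so the replicate block is no pairing of animals. With the replicate block, Ptprc, Adgre1, Cd163 and Mrc1 were at -0.072, -0.347, -0.154 and -0.122 in treadmill against control, Cd163 and Mrc1 at 0.456 and 0.252 in catgut 1 against treadmill, Adgre1 and Mrc1 at 0.216 and 0.043 in catgut 2 against treadmill, and Ptprc, Csf1r, Cd163 and Mrc1 at -0.060, -0.091, -0.232 and -0.180 in catgut 2 against catgut 1. It changed no call other than that of S100a9, and in 4 of the 24 pairs, 6 numbers in each of 4 comparisons, the libraries correlated best with their own number. Depth limited S100a8, with 18 of 24 libraries above 12 counts, more than the other markers, with 23 or 24.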
